A study of Homo sapiens with 4 samples.

Results

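AP-1 is a family of transcription factors that bind DNA as dimers, and 9 of the 10 subunit genes named for it were found among the 33478 rows of the expression table. The members were the rows whose symbol was JUN, JUNB, JUND, FOS, FOSB, FOSL1, FOSL2, BATF3, MAFF or MAFG, and MAFF was not analysed here. These symbols were chosen by a reading of the TPM values of the same libraries in the same comparison. Differences of the members between groups are therefore a description, and no test is given for them.

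An AP-1 dimer commonly pairs a JUN protein with another JUN protein or with a FOS, ATF, BATF or MAF partner through a leucine zipper, and grips DNA with the basic region beside it. FOS proteins cannot pair with themselves, so they need a partner of another family, such as JUN. Growth factors and stress act on AP-1 through the MAP kinases, which raise transcription of FOS and JUN and phosphorylate their proteins. In mouse liver, JUN is known for its part in regeneration and in the early growth of hepatocyte tumours.

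The cells were MHCC-97H, a human hepatocellular carcinoma line with high metastatic capacity. Of 4 RNA sequencing libraries, 2 came from cells with a control short hairpin RNA (shRNA; SH-NC in the titles) and 2 from cells with an shRNA against UCK2 (SH-UCK2-B), the kinase that phosphorylates uridine and cytidine for salvage. Nothing in the labels tells if the libraries were grown as separate cultures or if B stands for 1 hairpin. Some sample descriptions disagree with the titles, naming UCK3 for UCK2 shRNA replicate 2 and a different line number for control replicate 2. Levels are in TPM, a share of all transcripts in a library that is corrected for gene length and can be compared between genes, with n = 2 libraries in each group. Values after ± are SDs for levels and standard errors (SE) for differences.

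UCK2 itself stood at 135.7 and 93.6 TPM under the control hairpin and at 120.5 and 67.8 TPM under the UCK2 hairpin, so the groups overlapped. Its log2 difference, UCK2 shRNA minus control, was -0.31 ± 0.30 (limma adjusted p = 0.64), and every direction below rests on the library titles. The 4 columns held between 643063 and 850534 TPM over the rows used here, and the share of the fixed TPM total outside these rows was 14.9% to 15.0% in the controls and 32.3% to 35.7% in the libraries labelled UCK2 shRNA. The median log2 difference of the 14038 genes tested was -0.22, and median-ratio scaling of the libraries moved it to -0.0062, so both scales are given. Of the epithelial markers KRT8, KRT18, KRT19 and EPCAM, 3 of 4 reached 1 TPM, and so did 8 of 9 hepatocyte markers, with sums of 117.8 to 178.9 TPM. The labels' extraction text speaks of retinas, yet 7 of 10 retina markers lay under 1 TPM in every library and the highest, ARR3, at 1.70 TPM. Leukocyte markers summed to at most 1.65 TPM, and the endothelial list, nearly all PECAM1, to 21.2 to 25.8 TPM. The fibroblast list, led by LUM, summed to 29.1 and 6.95 TPM under the control hairpin against 20.9 and 15.9 TPM under the other. The epithelial list summed to 3105.7 and 4294.6 against 2729.9 and 2383.2 TPM. Control replicate 2 was thus the lowest library in fibroblast and the highest in epithelial markers, and the part of either in the results was not tested.

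The JUN family genes are shown first by the DNA before their RefSeq start sites, because JUND and JUNB lay far apart in the comparison below while sharing a gene structure. JUN, JUNB and JUND are each annotated with 1 exon, unlike the 6 other members found. The 250 bases upstream of each RefSeq start on GRCh38.p14 are given 5′ to 3′ on the gene's strand. They lie at chr1:58784048-58784297 (minus) for JUN, chr19:12791236-12791485 (plus) for JUNB and chr19:18281623-18281872 (minus) for JUND. The JUN window lies inside the span of the JUN row (58780788 to 58784327), an annotation that starts the gene further upstream than RefSeq does. Capitals mark matches to the motifs searched.
JUN: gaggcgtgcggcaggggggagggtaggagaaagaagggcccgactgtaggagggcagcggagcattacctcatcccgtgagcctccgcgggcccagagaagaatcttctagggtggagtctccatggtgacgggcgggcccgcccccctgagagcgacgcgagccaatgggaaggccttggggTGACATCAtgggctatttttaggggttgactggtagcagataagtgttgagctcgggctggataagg
JUNB: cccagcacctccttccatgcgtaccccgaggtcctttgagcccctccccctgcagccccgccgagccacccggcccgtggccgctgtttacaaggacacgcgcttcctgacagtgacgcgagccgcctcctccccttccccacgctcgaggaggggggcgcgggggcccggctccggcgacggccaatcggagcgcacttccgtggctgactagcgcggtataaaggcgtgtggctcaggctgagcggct
JUND: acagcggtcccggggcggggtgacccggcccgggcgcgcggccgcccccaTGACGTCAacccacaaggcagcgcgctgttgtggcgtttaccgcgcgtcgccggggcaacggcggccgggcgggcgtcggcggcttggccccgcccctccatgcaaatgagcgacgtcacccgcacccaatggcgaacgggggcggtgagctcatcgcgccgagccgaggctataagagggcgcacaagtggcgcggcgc
Motifs searched on both strands were TGANTCA (the AP-1 site), TGACGTCA (the cyclic AMP response element) and TGACATCA (a variant site known from the JUN promoter), which cannot overlap one another. The JUN window held TGACATCA, starting 67 bases before the start site, and 2.61% of the 35116 RefSeq windows, from 250 bases before to 50 after a start, held that motif. The JUND window held TGACGTCA, starting 200 bases before the start site, a motif in 1.85% of windows. MAFF has 2 windows with different starts, and the same motif starts 54 bases before the start site in 1 of them only. No motif matched in the windows of JUNB, FOS, FOSB and MAFG. TGANTCA, in 7.71% of windows, matched for FOSL2 from base 5 after the RefSeq start. The FOSL2 window also lies inside the span of its row, and those of FOS and FOSB reach into theirs. Windows were found for 8 of the 10 symbols, and those of FOSL1 and BATF3 were not.

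JUND had the largest difference of the members. JUND (ENSG00000130522, chromosome 19, 18279760 to 18281622, minus strand) encodes a JUN protein that many cell types make without stimulation and that the tumour suppressor menin binds. Its level was 101.0 and 113.2 TPM in control replicates 1 and 2, against 59.5 and 53.5 TPM in UCK2 shRNA replicates 1 and 2. Both libraries labelled UCK2 shRNA lay below both controls, and as deposited each group was narrow beside the gap. The group means were 107.1 ± 8.58 and 56.5 ± 4.22 TPM, and the log2 difference was -0.91 ± 0.16. Of the genes tested, 0.769% had a difference as low or lower. After scaling the JUND levels were 85.2 and 113 against 64.8 and 57.7, and the scaled log2 difference was -0.67 ± 0.21, still without overlap. On that scale the controls lay further from each other than control replicate 1 did from UCK2 shRNA replicate 1.

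JUN and JUNB had nearly equal levels in the controls and different ones in the other group. JUN (ENSG00000177606, chromosome 1, 58780788 to 58784327, minus strand), the founding member and the strongest activator of its family, read 55.8 and 69.4 TPM under the control hairpin against 41.3 and 42.9 TPM under the UCK2 hairpin. The groups of JUN did not overlap, and the log2 difference was -0.55 ± 0.18. On the scaled values JUN gave 47 and 69.2 against 45 and 46.3, where control replicate 2 stood apart and the other 3 libraries were close together. JUNB (ENSG00000171223, chromosome 19, 12791496 to 12793315, plus strand), which often acts against JUN, stood at 54.7 and 70.4 TPM in the controls and at 46.3 and 58.1 TPM in the others. The groups of JUNB overlapped, with a log2 difference of -0.26 ± 0.20 as deposited and -0.02 ± 0.25 after scaling. JUNB lies inside the span of HOOK2 on the opposite strand, which read 9.78 to 15.5 TPM. Strand use is not stated and overlap of their exons was not examined, so whether the pair share reads is unknown.

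Among the FOS genes, FOSL1 and FOSL2 made up most of the RNA, and FOS was the most variable. FOSL1 (ENSG00000175592, chromosome 11, 65892049 to 65900573, minus strand) encodes FRA1, which lacks the strong activation domain of FOS and is known for its part in invasion. Its level was 48.1 and 64.4 TPM under the control hairpin and 37.3 and 35.1 TPM under the UCK2 hairpin, a log2 difference of -0.61 ± 0.20. The groups of FOSL1 were apart as deposited. After scaling they touched, at 40.6 and 64.2 against 40.7 and 37.8, with control replicate 2 alone above the rest. FOSL2 (ENSG00000075426, chromosome 2, 28392448 to 28417312, plus strand), which encodes FRA2, read 41.6 and 45.7 against 34.3 and 32.5 TPM, a log2 difference of -0.38 ± 0.17. Its groups were apart as deposited and overlapped after scaling, where the difference was -0.14 ± 0.21. The rows FLJ31356 and RP11-373D23.2 overlap FOSL2 at no more than 3.67 TPM.

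FOS and FOSB, the immediate-early genes of the family, varied as much within groups as between them. FOS (ENSG00000170345, chromosome 14, 75278774 to 75282230, plus strand) read 11.1 and 21.8 TPM in the controls against 6.58 and 12.2 TPM in the others. The groups overlapped, and the log2 difference of FOS was -0.73 ± 0.39 as deposited and -0.51 ± 0.39 after scaling. FOSB (ENSG00000125740, chromosome 19, 45467995 to 45475179, plus strand), which in neurons is known for a long-lived splice form, was the lowest member. It read 0.788 and 1.36 TPM against 0.61 and 0.918 TPM, a mean over the 4 libraries of 0.918 TPM that left it under the minimum of 1 TPM for the fit. Without that minimum its log2 difference was -0.22 ± 0.27, and the groups overlapped. FOSB lies within the span of ERCC1 on the opposite strand, at 53.7 to 75.0 TPM. Overlap of their exons was not examined either, so whether the pair share reads is unknown.

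MAFG stood with JUND at the top of the members, and BATF3 was scarce. MAFG (ENSG00000197063, chromosome 17, 81918270 to 81927714, minus strand) encodes a small MAF protein that has no activation domain and pairs with NRF2 at antioxidant response elements. It stood at 97.6 and 101.7 TPM in the controls and at 77.4 and 69.9 TPM in the other group, a log2 difference of -0.43 ± 0.16 without overlap. After scaling the MAFG difference was -0.19 ± 0.20, and its groups overlapped. SIRT7 overlaps the 3′ end of MAFG on the same strand (112.7 to 172.8 TPM) and an antisense row lies inside it (11.6 to 16.7 TPM), so reads may be shared. MAFG-AS1, which starts beside MAFG on the opposite strand without overlap, read 24.6 and 20.9 against 16.1 and 12.7 TPM. BATF3 (ENSG00000123685, chromosome 1, 212686418 to 212699985, minus strand), known as the factor that cross-presenting dendritic cells need, read 5.04 and 4.79 TPM against 3 and 3.37 TPM. Its groups did not overlap as deposited or after scaling, and the log2 differences were -0.50 ± 0.27 and -0.31 ± 0.25. The leukocyte markers, PTPRC, CD3E, CD14 and LST1 among them, did not exceed 1.09 TPM in any library.

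**Figure D1:**
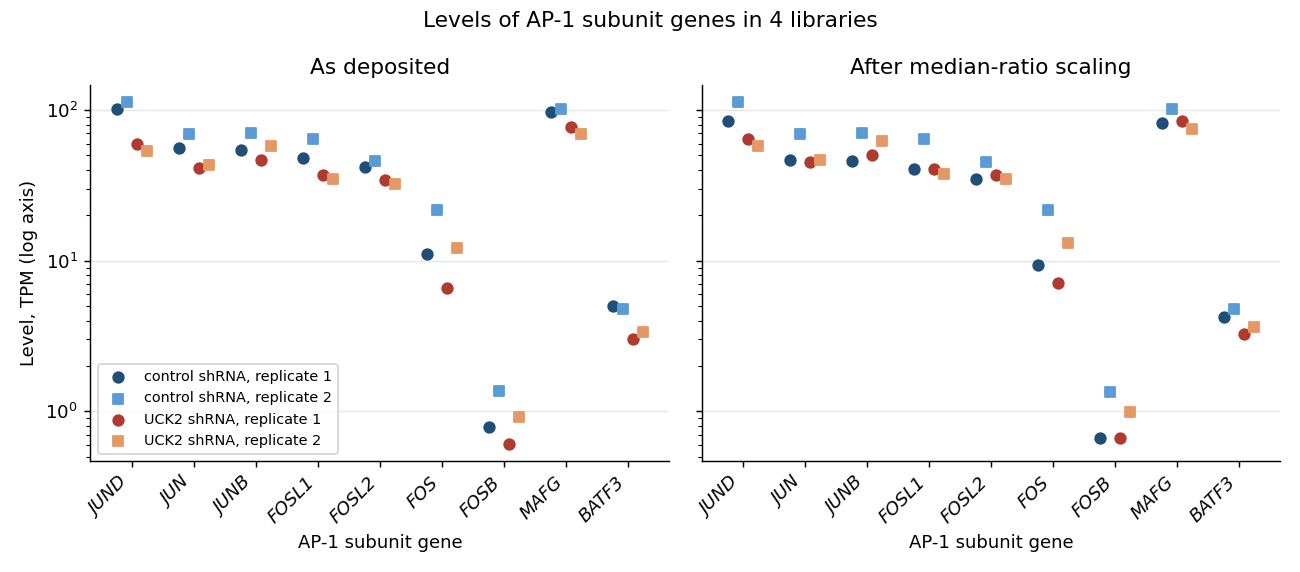
Levels of the 9 AP-1 subunit genes found, in TPM on a log axis, as deposited (left) and after median-ratio scaling (right), with 1 point for each library. JUND lies apart between groups in both panels, while on the scaled values control replicate 2 is the highest library for every gene shown.

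The order of levels changed at its top. In the controls JUND (107.1 TPM) and MAFG (99.7 TPM) led and their ranges overlapped, followed by JUN and JUNB (62.6 TPM each) and FOSL1 (56.3 TPM), whose neighbouring ranges overlapped as well. FOSL2 (43.7 TPM), FOS (16.4 TPM), BATF3 (4.91 TPM) and FOSB (1.07 TPM) followed, each apart from the next. In the libraries labelled UCK2 shRNA, MAFG (73.7 TPM) led, apart from JUND (56.5 TPM), and JUND and JUNB (52.2 TPM) overlapped. JUN (42.1 TPM), FOSL1 (36.2 TPM), FOSL2 (33.4 TPM), FOS (9.39 TPM), BATF3 (3.19 TPM) and FOSB (0.764 TPM) came next with no overlap between neighbours. Apart from JUND and MAFG, and from JUN and JUNB, the members kept their places. JUN and JUNB were level in the controls, also after scaling (58.1 and 58.2), so their order there has no weight.

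Shares within a family do not depend on how a library is scaled, and there JUND and JUNB parted. JUND made up 47.8% and 44.7% of the summed TPM of JUN, JUNB and JUND in the controls, against 40.4% and 34.6% in the libraries labelled UCK2 shRNA. The mean share of JUND was 46.2% ± 2.1 and 37.5% ± 4.1, a difference of -8.7 percentage points without overlap. The share of JUNB was 25.9% and 27.8% against 31.5% and 37.6%, a difference of 7.7 points, also without overlap. JUN held 26.4% and 27.4% against 28.1% and 27.8%, so a difference of 1.0 points was without overlap as well. Shares within 1 family depend on each other, and the level of JUNB itself had a log2 difference of -0.26 ± 0.20 as deposited. As each library was left out, the difference ran from -11.6 to -5.8 points for JUND and from 4.6 to 10.7 points for JUNB, both smallest without UCK2 shRNA replicate 2. The ratio of JUND to JUNB was accordingly 1.85 and 1.61 in the controls and 1.29 and 0.921 in the others. Of 2 libraries against 2, an exact permutation test cannot give a small p, and none was run.

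In the FOS family the groups overlapped for every share. FOSL1 held 47.4% and 48.3% of the summed TPM of FOS, FOSB, FOSL1 and FOSL2 in the controls and 47.4% and 43.5% in the other group. FOS held 10.9% and 16.3% against 8.3% and 15.1%, and FOSL2 held 41.0% and 34.3% against 43.5% and 40.3%, a difference of 4.3 points. Within both groups the library numbered 2 had the larger share of FOS. As deposited, the JUN family summed to 211.6 and 253.0 TPM in the controls and to 147.1 and 154.5 TPM in the others. The FOS family summed to 101.6 and 133.2 against 78.8 and 80.7 TPM, also as deposited. Unlike shares, these sums move with the scaling of a library. After scaling, control replicate 1 read 40.6 for FOSL1, against 40.7 and 37.8 in the libraries labelled UCK2 shRNA. For FOSL2 it read 35.1 against 37.3 and 35. The ratio of the FOS sum to the JUN sum was 0.48 to 0.536 over the 4 libraries. In bulk RNA, fewer cells with a transcript and less of it per cell cannot be told apart.

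**Figure D2:**
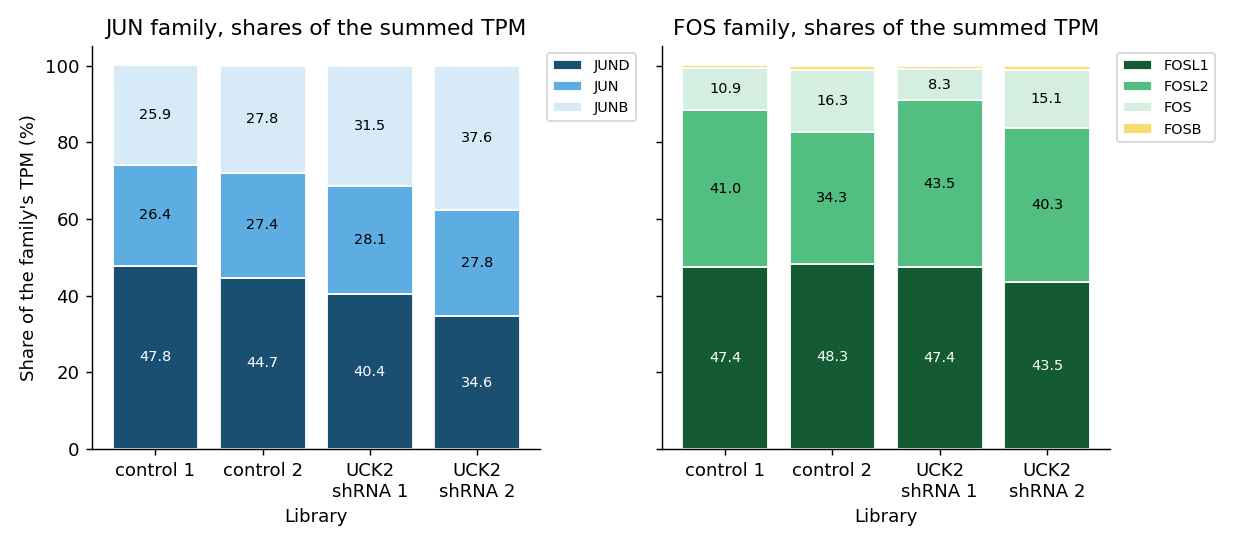
Share of each gene in the summed TPM of its family, in percent, for the JUN family (left) and the FOS family (right), with 1 stacked bar for each library. The JUND share is 47.8% and 44.7% in the controls and 40.4% and 34.6% in the libraries labelled UCK2 shRNA, and that of JUNB moves the other way, from 25.9% and 27.8% to 31.5% and 37.6%.

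As deposited, all 8 members tested had a log2 difference below 0, as did 74.7% of all genes, and the median of the members was -0.53 beside -0.22 for all genes tested. The groups did not overlap for 6 of the 8, JUN, JUND, FOSL1, FOSL2, BATF3 and MAFG, all lower in the libraries labelled UCK2 shRNA. Over all genes 44.4% were lower without overlap. After scaling the median of the members was -0.31 and 3 of 8, JUN, JUND and BATF3, were lower without overlap, where 15.5% of all genes were. These counts describe genes that were picked in view of this comparison. The scaled values of most members turned on control replicate 2. Without it the scaled log2 difference was -0.04 for JUN, FOSL1 and MAFG, 0.06 for FOS, 0.05 for FOSL2 and 0.28 for JUNB. JUND stayed at -0.47 and BATF3 at -0.23. Leaving out each library in turn, the scaled difference ran from -0.88 to -0.47 for JUND and from -0.37 to -0.23 for BATF3, and it also stayed below 0 for JUN (-0.59 to -0.04), FOSL1 (-0.70 to -0.04) and MAFG (-0.35 to -0.04). The scaled difference of FOS ran from -1.08, without control replicate 1, to 0.06.

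**Figure D3:**
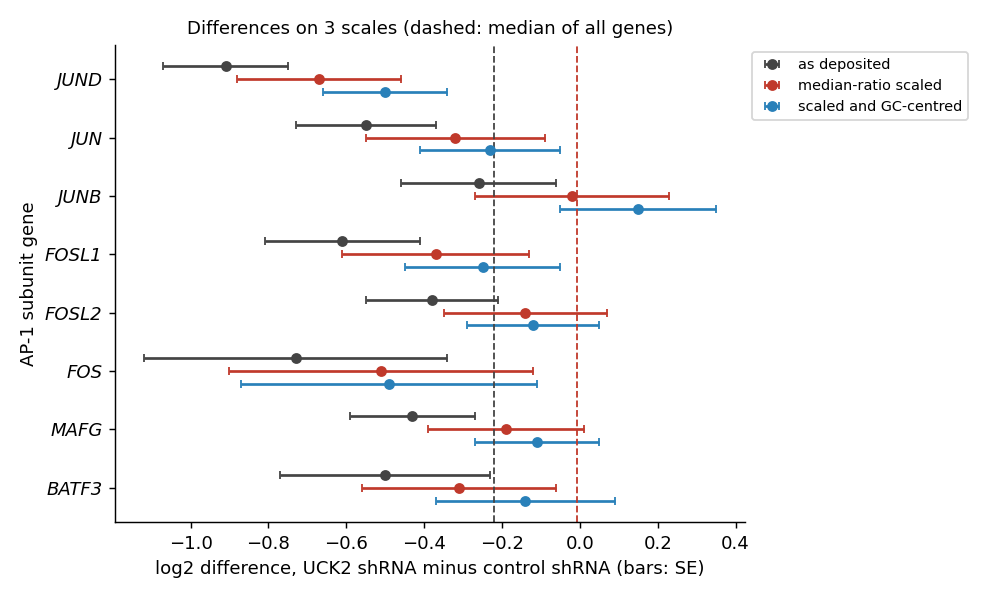
Log2 differences of the 8 AP-1 subunit genes tested, UCK2 shRNA minus control, on 3 scales, with bars for the standard error and dashed lines for the median of all genes as deposited (-0.22) and scaled (-0.0062). JUND lies lowest as deposited and scaled (-0.91 and -0.67), and JUNB lies at the other end on each scale.

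All 8 members tested have transcripts richer in GC than the median gene, and the difference between groups moved with GC content across the table. GC content was 69.7% for JUND, 64.9% for JUNB, 63.3% for BATF3, 60.0% for FOSL1, 57.2% for MAFG, 56.7% for JUN, 53.3% for FOSL2 and 52.6% for FOS, where the median of genes tested was 48.9%. In 10 groups of genes by GC content, the median scaled difference went from 0.28 in the lowest to -0.18 in the highest. Its part in the differences of the members was not tested, but centring each library within those groups sets each member beside the genes of its GC group. After that step the log2 difference was -0.50 ± 0.16 for JUND, -0.49 ± 0.38 for FOS, -0.25 ± 0.20 for FOSL1, -0.23 ± 0.18 for JUN, -0.14 ± 0.23 for BATF3, -0.12 ± 0.17 for FOSL2 and -0.11 ± 0.16 for MAFG. JUNB turned to 0.15 ± 0.20. The median of the members was then -0.19, against -0.03 for all genes, and 4 of 8 (JUN, JUND, BATF3 and MAFG) were lower without overlap, as were 18.1% of all genes. JUND, JUNB and BATF3 fall in the same GC group, where 1.73% of genes had a scaled difference as low as that of JUND or lower, 27.6% one as low as BATF3 and 74.2% one as low as JUNB. That group spans 62.1% to 75.8% GC with a median of 64.5%, so most of its genes have a lower GC content than JUND.

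**Figure D4:**
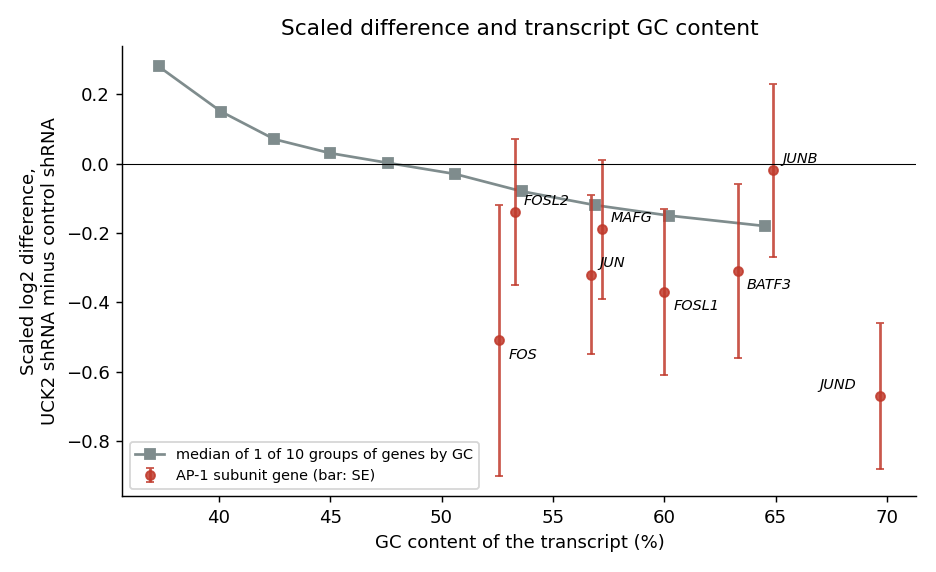
Scaled log2 difference, UCK2 shRNA minus control, against the GC content of the transcript in percent, with squares for the medians of 10 groups of genes by GC content and points with SE bars for the AP-1 subunit genes. The medians go down from 0.28 to -0.18 with rising GC content. JUND (-0.67) lies below the last median and JUNB (-0.02) above it, both at a higher GC content than its square.

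The genes whose profile was most like that of JUND over the 4 libraries were SLX1A, NKD1, TMEM189-UBE2V1, NDUFS6 and GRWD1. Likeness was the Euclidean distance between centred, scaled log2 profiles among 9093 protein-coding genes averaging at least 5 TPM, and these 5 lay within 0.0616 of JUND. SLX1A, a structure-specific nuclease subunit with a near-identical copy, read 100.1 and 113.5 against 58.3 and 52.3 TPM, level for level close to JUND. TMEM189-UBE2V1 is a readthrough gene, so its value is uncertain. For FOSL1, the most abundant FOS gene, they were ETFB, VPS37C, MAF1, ITPK1 and C6orf1, within 0.0389. JUN ranked 90 in likeness to FOSL1 and 777 to JUND, FOSL1 ranked 482 to JUND, and JUNB ranked 4964 to JUND. With 4 libraries many genes share a profile, and these distances are a description only.

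Around the members, 7 lists of genes of the AP-1 pathway were read in the fit over all genes. Of 97 genes tested in them, 0 passed at a limma adjusted p under 0.05 in either direction, as for all genes (0% called in each direction, as deposited). The lowest adjusted p among them was 0.294. Unadjusted and as deposited, 19 had a limma p under 0.05 with a lower level and 0 with a higher one, where 14.0% of all genes were lower and 1.38% higher. This one-way count did not hold after scaling. An unadjusted limma p under 0.05 then went to 1 lower kinase gene, 1 higher promoter-binding factor, and 1 lower and 1 higher modifier. In the other lists it went to 0 genes. After scaling 0 of the 97 were called (0.0641% of all genes were called higher and 0% lower), and after GC centring 0 as well (0.0504% higher and 0% lower). Without control replicate 1, 8 of the listed genes passed. The lower ones included EGR1 (-1.36), IER2 (-0.76), DUSP1 (-0.92), RHOB (-0.81) and TGFB1 (-0.80), and the higher ones were MKL2 (0.94) and NFE2L2 (0.86). With scaling and the same library left out, the lower calls and that of NFE2L2 did not hold, and MKL2 differed by 1.04. EGR1 read 30.8 TPM in control replicate 2 against 10.5 TPM in control replicate 1. The fit as deposited without control replicate 1 had control replicate 2 as its only control. In that fit 3.17% of all genes were called higher and 2.32% lower.

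The dimer partners outside the members showed no common direction after scaling. Of 7 ATF, BATF and JDP genes tested, 0 passed, 4 lay below 0 after scaling and the scaled median was -0.06. ATF7, a relative of ATF2 that pairs with JUN and FOS, read 28.5 and 26.1 against 19.9 and 18.3 TPM, with a scaled log2 difference of -0.26 ± 0.20. ATF3, a stress-induced repressor, read 13.2 and 12.6 against 12.9 and 17.2 TPM and had a difference of 0.42 ± 0.23 after scaling. BATF2 was under 2 TPM throughout. Of 5 MAF and CNC genes tested, 0 passed and the scaled median was -0.04. MAFK, the other abundant small MAF gene, read 86.7 and 72.2 against 65.5 and 51.4 TPM, without overlap (scaled difference -0.20 ± 0.21). The ratio of MAFG to MAFK was 1.27 on average in both groups. NFE2L1, a CNC factor that pairs with small MAF proteins, read 151.1 and 141.2 against 104.7 and 135.0 TPM (scaled difference -0.06 ± 0.21).

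Of the kinases that act on AP-1, the MEK genes MAP2K1 and MAP2K2 had the smallest p. The list of 18 genes tested had 0 called and a scaled median of -0.01. MAP2K1 read 51.2 and 53.6 against 34.1 and 28.4 TPM, a log2 difference of -0.73 ± 0.18 (limma adjusted p = 0.294) and -0.50 ± 0.21 after scaling, without overlap on either scale. MAP2K2 read 109.0 and 137.2 against 86.7 and 81.3 TPM, and its scaled difference was -0.30 ± 0.23. Of the 11 promoter-binding factors tested, 0 passed and the scaled median was 0.01. ELK1, which binds the FOS promoter with SRF once ERK has phosphorylated it, read 42.5 and 49.1 against 34.1 and 27.8 TPM. Its scaled difference was -0.32 ± 0.23. MKL2, a coactivator of SRF, went the other way, from 11.7 and 7.31 to 15.3 and 14.6 TPM, with a scaled difference of 0.86 ± 0.23 that did not pass (limma adjusted p = 0.56). MEF2D, of a factor family that binds the JUN promoter, read 45.6 and 46.3 against 36.6 and 38.6 TPM (scaled difference -0.05 ± 0.20).

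Of 11 genes for proteins that modify or degrade JUN and FOS, 0 passed and the scaled median was -0.03. APEX1, which keeps the DNA-binding cysteines of JUN and FOS reduced, read 198.3 and 181.8 against 158.6 and 130.4 TPM. TRIB1, an adaptor of the ubiquitin ligase COP1, read 64.0 and 69.4 against 48.3 and 50.3 TPM. After scaling APEX1 and TRIB1 differed by -0.16 ± 0.21 and -0.19 ± 0.21, and their groups overlapped.

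Of 26 other immediate-early genes tested, 0 passed and 25 lay below 0 after scaling, as did 50.8% of all genes. Their scaled median was -0.14 beside -0.0062 for all genes. That median turned on single libraries, at 0.02 without control replicate 2, -0.35 without control replicate 1 and -0.25 when UCK2 shRNA replicate 2 was left out. After GC centring 23 of 26 lay below 0, as did 55.7% of all genes, and the median was -0.15 beside -0.03 for all genes. MYC read 119.2 and 121.5 against 90.0 and 86.9 TPM (scaled difference -0.20 ± 0.20), and PHLDA1 read 55.4 and 62.2 against 43.2 TPM in both others. MCL1, a survival gene of the BCL2 family, read 147.1 and 127.2 against 94.1 and 116.0 TPM, and ZFP36L1, an mRNA decay factor, 136.7 and 113.1 against 79.0 and 111.1 TPM. All 4 were apart as deposited, and of them MYC alone was after scaling. Of 19 genes tested with known AP-1 sites, 0 passed, 14 lay below 0 and the scaled median was -0.12, which became 0.05 without control replicate 2, -0.23 without control replicate 1 and -0.08 when UCK2 shRNA replicate 2 was left out. TGFB1 read 81.3 and 96.1 against 60.1 and 49.9 TPM, a scaled difference of -0.44 ± 0.23. TIMP1, a metalloproteinase inhibitor, read 255.4 and 329.2 against 222.5 and 188.2 TPM, a scaled difference of -0.26 ± 0.25. SPP1, which encodes osteopontin, read 749.2 and 671.8 against 563.6 and 630.4 TPM, a scaled difference of -0.01 ± 0.22.

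**Figure D5:**
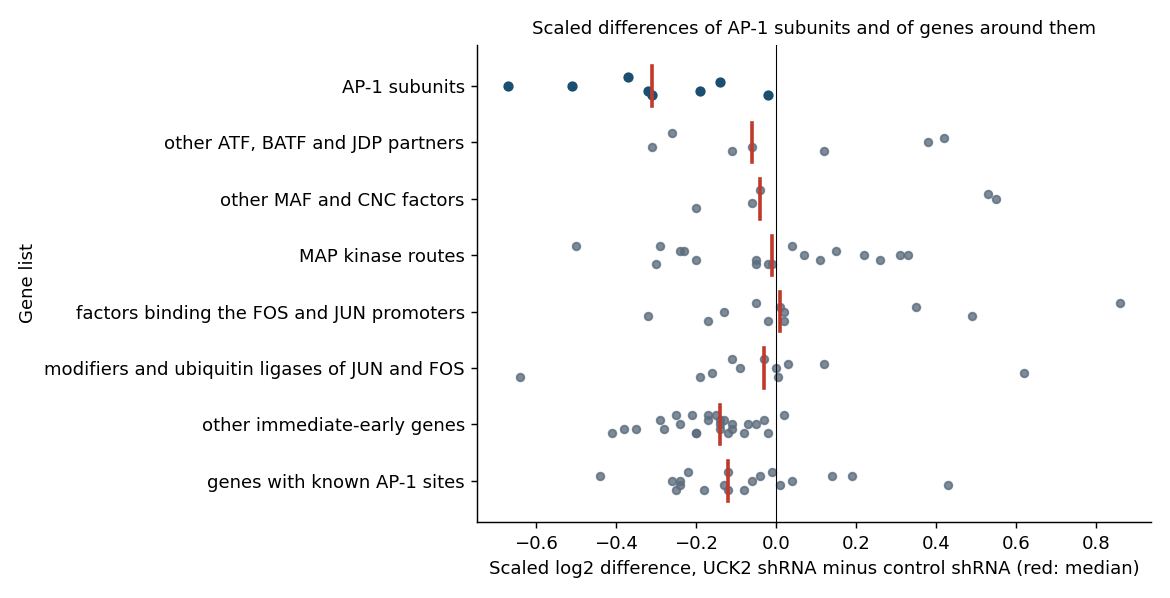
Scaled log2 differences, UCK2 shRNA minus control, of the 8 AP-1 subunit genes tested and of the genes tested in 7 lists around them, with 1 point a gene and a red line for each median. The medians of the lists lie between -0.14 and 0.01 and that of the AP-1 subunits, which were picked in view of these values, at -0.31.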

How the data were processed

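RNA of 4 libraries was sequenced, and the authors deposited TPM per gene. The tools listed in the submitters' processing notes, without roles, are HTSeq, edgeR, DESeq and TopHat2 2.0.14, and the build is hg38. Whether counting used strand is not stated. TPM keeps no depth, so no read total or interval can be given. Libraries were grouped by title. The members and lists were chosen with earlier results of these data known. Genes averaging at least 1 TPM (14038) were fitted as log2(TPM + 1) in limma (version 3.58.1, R 4.3.3; eBayes with trend, two-sided, Benjamini-Hochberg over all genes, threshold 0.05), and the fit was tested on simulated data. This scale understates changes of low genes. P-values reflect spread between libraries that may be technical. Median-ratio factors were 1.19 and 1 (controls) and 0.918 and 0.928 (UCK2 shRNA). Positions are those of the table and, for the members, equal GENCODE 29, which gave exons and GC content (98.9% of genes tested). In each list the 2 genes highest in mean TPM and the 2 with the smallest p are named; others were chosen after their values were seen. Some genes these rules name are not reported here. Alternatives were other scalings, pseudocounts, filters and variance models, replicate blocks and leaving out libraries. GC centring, scaling with a library left out and crossed pairs were added after seeing the data.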

Additional observations from a re-analysis of the deposited data

How the results depend on the processing

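As deposited, 0 genes were called higher and 0 lower. The count of higher genes was 9 with median-ratio scaling, 8 with quantile normalization and 7 with scaling and GC centring. The titles share library numbers, but nothing says that they pair the libraries, and deviations of same-numbered libraries correlated at -0.23 across genes after scaling. With the number as a replicate block 29 genes were called higher and 10 lower, or 98 and 23 with scaling, and 0 of the 97 listed genes in either fit. With crossed pairs the calls were 91 higher and 636 lower, or 13 and 0 with scaling, and in the lists 1 kinase, 1 modifier and 3 genes with AP-1 sites as deposited. Leaving out each library, with or without scaling, gave 0 to 441 higher and 0 to 323 lower genes, both highest counts without control replicate 1; with scaling the highest were 295 and 24 without it and 20 and 3 without control replicate 2. Calls in the lists then ran from 0 to 1 for CNC factors, promoter-binding factors, modifiers and genes with AP-1 sites, and from 0 to 4 for immediate-early genes.

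The median log2 difference of the members, -0.53, was -0.31 with median-ratio scaling (with or without the block), -0.24 with quantile normalization and -0.19 with GC centring, and ran from -0.59 to -0.40 with a library left out, or -0.48 to -0.04 with scaling as well (-0.26 and -0.32 without either UCK2 shRNA library). Of 159 values of the 8 members tested under the alternatives, 6 lay above 0. Blocks, crossed pairs, filters and variance models cannot change a log2 difference, so many of these values are repeats. JUNB was above 0 with quantile normalization (0.11), GC centring (0.15) and scaling without UCK2 shRNA replicate 1 (0.14). With scaling without control replicate 2, JUNB (0.28), FOS (0.06) and FOSL2 (0.05) were. FOSB had a value of 0.0092 with scaling without UCK2 shRNA replicate 1, a fit in which it passed the filter. The JUND share stayed negative in each alternative run, the FOSL1 share ran from -4.4 to -0.5 points with a library left out, and shares of the FOS family were not run with quantile normalization because FOSB fell under the filter. The UCK2 difference was -0.72 without UCK2 shRNA replicate 1 and turned to 0.06 with quantile normalization, to 0.10 without UCK2 shRNA replicate 2 (0.35 with scaling) and to 0.07 with scaling without control replicate 1. The cause of these changes was not tested. TPM hides depth, so what depth limits here is unknown.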

Other observations

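FOS, FOSB, JUNB and JUN were higher in the library numbered 2 of each group, by a ratio of 1.96 and 1.86 for FOS, 1.72 and 1.5 for FOSB, 1.29 and 1.26 for JUNB and 1.25 and 1.04 for JUN in the controls and the libraries labelled UCK2 shRNA. The zinc finger gene EGR1, another target of SRF, had ratios of 2.94 and 2.07, EGR2 2.67 and 1.49, KLF2 1.85 and 1.74, PPP1R15A 1.46 and 1.38 and IER2 1.4 and 1.18. These genes were chosen after their values were seen. Of the 26 other immediate-early genes tested, 11 were higher in both libraries numbered 2 as deposited, and so were 3 of the 8 members tested (JUN, JUNB and FOS), beside 11.0% of all genes. After scaling it was 14 of 26 and 4 of 8 (with BATF3), beside 18% of all genes. The labels do not say what the numbers stand for.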
